A study of Mus musculus with 6 samples.

Results

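Horizontal cells are inhibitory interneurons of the outer retina that take input from photoreceptors and feed back onto them. The genes described here are 9 that mark these cells or set their identity: the transcription factors Lhx1, Onecut1, Onecut2, Onecut3, Prox1 and Tfap2b, the calcium-binding protein Calb1, the connexin Gja10 and the anion exchanger Slc4a3. Every probe whose single gene symbol in the array annotation was one of the 9 was taken, which gave 23 of 45281 probes for 8 genes. Onecut1 had no probe by this rule and is not described further. RNA came from the central retina of rd1/rd1 mice, which carry a mutation of Pde6b, a subunit of the rod phosphodiesterase, and lose rods and then cones. There were 3 samples at 2 months and 3 at 8 months of age, all untreated and of the same strain. All groups carried the mutation, so no sample gives the level in a healthy retina. Each sample pooled 3 to 6 punches of 1.5 mm diameter, and the number of animals in a pool is not stated.

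In development, Onecut factors act upstream of Lhx1 in the cells that become horizontal cells, and Prox1 and Tfap2b act in the same lineage. Lhx1 remains on in mature horizontal cells and is needed for their position in the retina. The others are shared with further cell types: Prox1 with AII amacrine cells, some bipolar cells and Müller glia, Tfap2b with amacrine cells, and Onecut2 with ganglion cells. Calb1 and Gja10 are markers of mature horizontal cells, and Gja10, connexin 57, forms the gap junctions that couple them.

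None of the 23 probes passed the test between the ages, whose threshold was 0.05 for limma's p after Benjamini-Hochberg adjustment over the 22458 kept probes. Over all kept probes 0.0134% were called lower and 0.0356% higher at 8 months. At an unadjusted p below 0.05, 5 probes of the set were lower and 2 higher, where 4.44% and 4.62% of all kept probes were. Lhx1 came closest to the threshold, with an adjusted p of 0.0676 (limma). The samples of the 2 ages did not overlap at 8 of the 23 probes. At 5 of these, 21.7% of the set, every 8 month sample was lower, against 5.72% of all 45281 probes. At 3 of them, 13.0%, every 8 month sample was higher, against 5.92% of all probes. Several probes measure the same gene, so these shares rest on fewer than 23 separate measurements. The lower probes belong to Lhx1, Onecut2, Onecut3 and Slc4a3, and the higher ones to Tfap2b and Onecut3. The higher Onecut3 probe was below the array median at 2 months and barely above it at 8 months. Of the 23 probes, 20 passed the filter on dim signals.

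**Figure D1:**
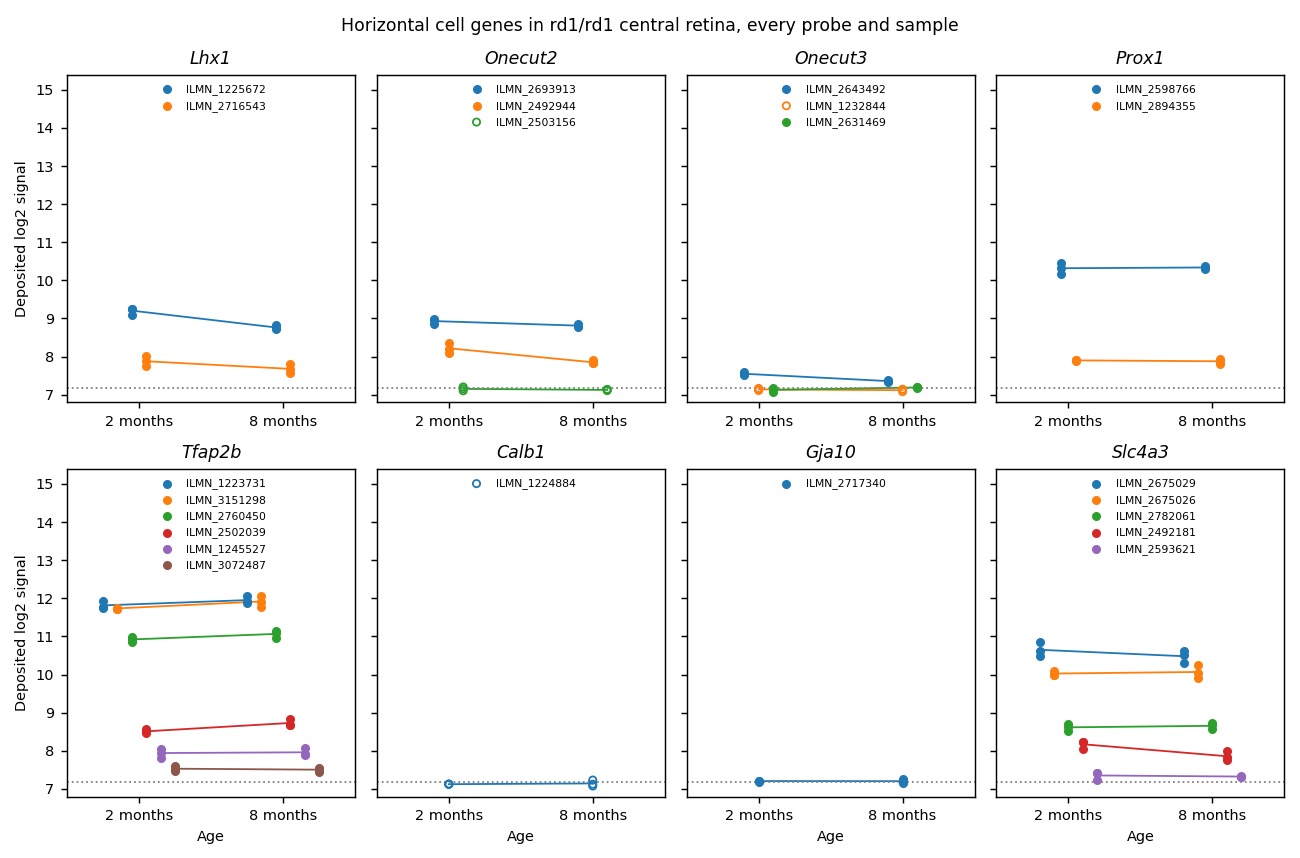
Deposited log2 signal (vertical axis) of each probe at 2 and 8 months for the 8 genes with a probe. Each point is 1 sample, lines join the means of 3 samples, open points are probes below the filter, and the dotted line is the array median of 7.19; the Lhx1 and brighter Onecut2 probes slope down, 4 Tfap2b probes slope up, and Calb1 and Gja10 lie close to the median.

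Lhx1, a LIM-homeodomain factor, is found mainly in horizontal cells in the mature retina. Its brighter probe, ILMN_1225672, read 9.26, 9.26 and 9.10 in the 2 month samples and 8.75, 8.82 and 8.72 in the 8 month samples. All 8 month samples thus lay below all 2 month samples, with a gap of 0.28 between the nearest samples of the 2 ages. The mean went from 9.21 ± 0.0894 to 8.77 ± 0.0509 (SD, n = 3 per age), a change of −0.44 (SE 0.0584, 95% interval −0.58 to −0.30). If the deposited scale is a plain log2, which the files do not state, this is 73.6% of the 2 month signal. In pooled punches of central retina, fewer cells of a type and less RNA per cell cannot be told apart. By its p, the probe ranked 35 of 22458.

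The dimmer Lhx1 probe, ILMN_2716543, read 7.88, 8.02 and 7.74 at 2 months and 7.56, 7.81 and 7.66 at 8 months. These values overlap, since 8 month replicate 2 lay above 2 month replicate 3. Its change was −0.20 (SE 0.0891, 95% interval −0.41 to 0.01). The direction was the same at both probes, and the interval of the dimmer one includes 0. Without 2 month replicate 2 its change was −0.13.

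The Lhx1 call depended on the analysis. The brighter probe passed at the same change of −0.44 with a stricter filter on dim probes (limma adjusted p = 0.0283) and with limma-trend and robust variances (adjusted p = 0.0232). It also passed without 2 month replicate 3, the lowest 2 month sample, with a change of −0.49 (limma adjusted p = 0.0437). Over all 18 alternatives its change ran from −0.49 to −0.34 and its adjusted p from 0.0232 to 0.710.

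The promoters of Lhx1 and Tfap2b are shown because these genes had their clearest differences in opposite directions. Both come from RefSeq on GRCm38.p6, each as 250 bases before and 50 bases after an annotated start site, written 5′ to 3′ on the gene's strand. Lhx1 lies on the minus strand at chr11:84525485-84525784 and Tfap2b on the plus strand at chr1:19211804-19212103. Capitals mark matches to ATCAAT, the core recognised by Onecut factors, to GCCNNNGGC, the AP-2 motif, or to TAATTA, a LIM-homeodomain motif, each searched on both strands.
Lhx1: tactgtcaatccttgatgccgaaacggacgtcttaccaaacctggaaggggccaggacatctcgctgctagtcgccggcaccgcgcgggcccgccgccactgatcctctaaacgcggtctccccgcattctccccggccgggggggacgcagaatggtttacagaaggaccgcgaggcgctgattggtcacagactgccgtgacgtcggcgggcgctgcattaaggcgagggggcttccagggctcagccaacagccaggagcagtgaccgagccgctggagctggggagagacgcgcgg
Tfap2b: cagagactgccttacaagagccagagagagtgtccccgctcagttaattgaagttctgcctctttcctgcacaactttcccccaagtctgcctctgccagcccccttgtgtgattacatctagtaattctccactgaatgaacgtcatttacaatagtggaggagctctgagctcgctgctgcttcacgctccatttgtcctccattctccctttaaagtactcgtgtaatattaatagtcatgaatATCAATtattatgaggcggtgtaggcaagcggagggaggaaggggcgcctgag
The Tfap2b window held 1 match to ATCAAT, beginning 3 bases before the start site, and none to the other motifs. The Lhx1 window held no match to any of them, which says only that these letters are not in it. Of 32851 promoter windows of this length, 7.54% held ATCAAT, 16.6% GCCNNNGGC and 5.29% TAATTA.

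Onecut2, a cut-homeodomain factor, was measured by 3 probes. ILMN_2492944 read 8.21, 8.35 and 8.10 at 2 months and 7.83, 7.82 and 7.90 at 8 months. The ages were separate by 0.20, and the change was −0.37 (SE 0.0687, 95% interval −0.53 to −0.21, limma adjusted p = 0.157). With limma-trend and robust variances this probe passed as well (adjusted p = 0.0295), and over its 17 alternatives the adjusted p ran from 0.0295 to 0.930.

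The brightest Onecut2 probe, ILMN_2693913, read 8.98, 8.96 and 8.85 at 2 months and 8.85, 8.80 and 8.79 at 8 months. The ages were separate here too, but by 0.004 only. Its change was −0.12 (SE 0.0507, 95% interval −0.24 to −0.0002), smaller than that of ILMN_2492944. The last probe, ILMN_2503156, lay below the array median of 7.19 on average, at 7.15 and 7.13, and stayed below the filter.

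Onecut3, the third member of the family, was dim throughout. ILMN_2643492 read 7.53, 7.53 and 7.59 at 2 months and 7.38, 7.36 and 7.33 at 8 months, a change of −0.19 (SE 0.0429, 95% interval −0.29 to −0.09, limma adjusted p = 0.212). All 8 month samples were lower. The means lay 0.36 above the array median at 2 months and 0.17 above it at 8 months, where differences on such arrays can be compressed. ILMN_2631469 went the other way, from 7.08, 7.13 and 7.17 to 7.19, 7.19 and 7.19. Its change of 0.06 (SE 0.0420) lay at the array median itself. Every 2 month sample was below that median and every 8 month sample barely above it. The probe thus passed the filter only through its 8 month samples. The mean of ILMN_1232844 was below that median at both ages, at 7.14 and 7.12.

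Prox1, a homeodomain-related factor that horizontal cell precursors need, had changes near 0. Its brighter probe, ILMN_2598766, read 10.34, 10.16 and 10.46 at 2 months and 10.31, 10.33 and 10.37 at 8 months. The 8 month values lay inside the 2 month range, and the change was 0.02 (SE 0.0779, 95% interval −0.16 to 0.20). The dimmer probe, ILMN_2894355, had a change of −0.02 (SE 0.0487, 95% interval −0.14 to 0.09). In this fit, which has no covariate, differences as large as that of the brighter Lhx1 probe are outside both intervals.

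Tfap2b, which codes for the transcription factor AP-2 beta, had 6 probes, all above the filter, and 5 of them had positive changes. ILMN_2502039 read 8.58, 8.49 and 8.47 at 2 months and 8.67, 8.68 and 8.84 at 8 months. Every 8 month sample was higher, and the change was 0.22 (SE 0.0614, 95% interval 0.08 to 0.36, limma adjusted p = 0.307). ILMN_3151298 read 11.72, 11.72 and 11.76 at 2 months and 11.92, 11.78 and 12.05 at 8 months. The ages were separate by 0.03, with a change of 0.18 (SE 0.0698, limma adjusted p = 0.489). At both probes 8 month replicate 3 was the highest sample, and without it the change of ILMN_3151298 was 0.11 (SE 0.0586).

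The other bright Tfap2b probes, ILMN_1223731 and ILMN_2760450, overlapped between the ages. Their changes were 0.14 (SE 0.0712) and 0.15 (SE 0.0633), and that of ILMN_1223731 was 0.08 without 8 month replicate 3. The 2 dimmest, ILMN_1245527 and ILMN_3072487, had changes of 0.02 and −0.03. No Tfap2b probe passed under any of the alternatives.

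Slc4a3, a chloride-bicarbonate exchanger enriched in horizontal cells and also found in Müller glia, gave different values at its 5 probes. ILMN_2492181 read 8.24, 8.22 and 8.06 at 2 months and 7.83, 7.75 and 7.99 at 8 months. All 8 month samples were lower, with a gap of 0.07 and a change of −0.31 (SE 0.0772, 95% interval −0.50 to −0.13, limma adjusted p = 0.253). The brightest probe, ILMN_2675029, read 10.48, 10.62 and 10.86 at 2 months and 10.50, 10.31 and 10.63 at 8 months. These ranges overlap, and the change was −0.17 (SE 0.115, 95% interval −0.44 to 0.10). That value rested on single samples: it was −0.07 without 2 month replicate 3, −0.08 without 8 month replicate 2 and −0.26 without 2 month replicate 1.

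The remaining Slc4a3 probes ran from −0.03 to 0.04. ILMN_2675026, which read 9.98, 10.10 and 10.00 at 2 months and 10.05, 9.92 and 10.24 at 8 months, had a change of 0.04 (SE 0.0839). Its 95% interval, −0.16 to 0.24, overlaps that of ILMN_2492181, −0.50 to −0.13. The difference between the probes was not tested. At all 4 probes other than ILMN_2492181 the ages overlapped.

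The 2 markers of mature horizontal cells had 1 probe each, both dim. Calb1, the calcium buffer calbindin, read 7.12, 7.12 and 7.13 at 2 months and 7.23, 7.08 and 7.12 at 8 months. The Gja10 probe read 7.22, 7.22 and 7.18 at 2 months and 7.26, 7.14 and 7.21 at 8 months. The ages overlapped in both. The Calb1 means, 7.12 at 2 months and 7.14 at 8 months, were below the median of 7.19, and the probe did not pass the filter. The Gja10 means, 7.21 and 7.20, were just above it, and this probe passed, with a change of −0.003 (SE 0.0464). At this signal a difference in either gene was not detectable.

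**Figure D2:**
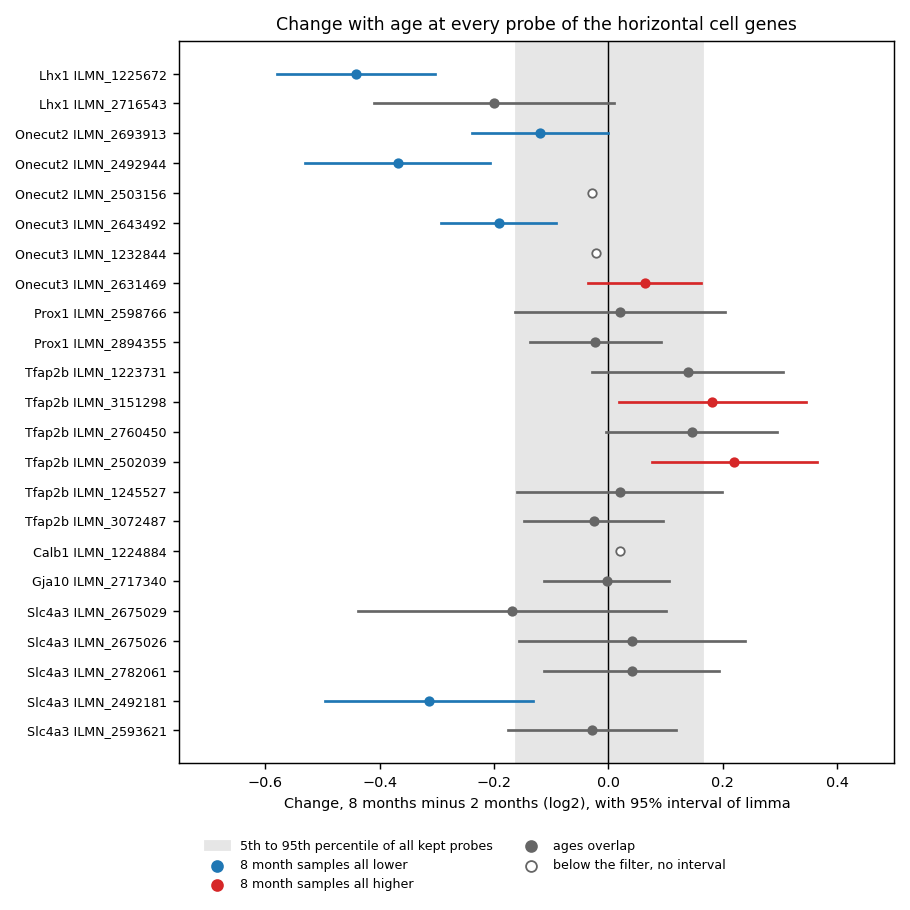
Change from 2 to 8 months (horizontal axis, log2) at each of the 23 probes, with limma's 95% interval from 3 samples per age. Blue and red mark probes whose ages do not overlap, open points are probes below the filter, and the grey band runs from the 5th to the 95th percentile of all kept probes (−0.16 to 0.17); both Lhx1 probes, ILMN_2492944 of Onecut2, ILMN_2643492 of Onecut3, and ILMN_2492181 and ILMN_2675029 of Slc4a3 lie left of the band and 2 Tfap2b probes right of it.

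The list of other horizontal cell genes named 18 genes, of which 15 had a probe and 11 a kept one. By the brightest kept probe, 6 had negative and 5 positive changes, and the median was −0.04. Over 12046 genes, 49.8% had negative changes and the median was 0.0005. None of the 11 passed over all probes (limma). At an unadjusted p below 0.05 at that probe, 2 of the 11 were lower and 2 higher, where 4.44% and 4.62% of all kept probes were. The dimmer probes with separate ages, ILMN_2426966 of Tpm3 and ILMN_3043469 of Ret, were both lower at 8 months. Their changes were −0.16 (SE 0.0431) and −0.14 (SE 0.0486). At the brightest probes of Tpm3 and Ret the ages overlapped, with changes of −0.09 and −0.11. Sall3, a zinc finger factor needed for horizontal cell maturation, read 8.12, 8.12 and 8.11 at 2 months and 7.96, 7.90 and 7.97 at 8 months, a change of −0.17 (SE 0.0411, limma adjusted p = 0.245). Every 8 month sample of Sall3 was lower. Slc32a1, the vesicular transporter of GABA and glycine, which amacrine cells also use, had a change of 0.13 (SE 0.0420), with every 8 month sample higher.

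Tfap2a, the AP-2 alpha factor shared by horizontal and amacrine cells, had a change of 0.14 (SE 0.0592) at its brightest probe, also without overlap. Its 3 other kept probes overlapped between the ages and had changes of −0.06, −0.01 and 0.06. Pvalb, the calcium-binding parvalbumin, had a change of −0.19 (SE 0.0777), and its ages overlapped. The probes of Ptf1a and Foxn4, factors of the embryonic precursors, stayed below the filter. So did those of Septin4 and Nefl.

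The genes whose brightest kept probe followed ILMN_1225672 of Lhx1 most closely over the 6 samples, among 11681 genes compared, were Dab1, Fabp3, Gnat2, Plac9a and Angptl4. Their Pearson r, given as a description of arrays that share the difference between the ages, was 0.998, 0.997, 0.995, 0.992 and 0.991. Dab1, the reelin adaptor found in AII amacrine cells, read 9.63, 9.62 and 9.52 at 2 months and 9.33, 9.36 and 9.30 at 8 months. Gnat2, the cone transducin alpha subunit, read 9.55, 9.60 and 9.37 at 2 months and 8.66, 8.75 and 8.53 at 8 months. In both, as in Lhx1, 2 month replicate 3 was the lowest of its age and 8 month replicate 3 the lowest of all. Gnat2 was called lower at 8 months (limma adjusted p = 0.0271) and the other 4 were not.

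Among marker lists of other retinal cells, the means of the cone, rod and amacrine lists did not overlap between the ages. The mean level of 11 kept cone genes of 12 ran from 9.73 to 10.11 at 2 months and from 8.47 to 9.09 at 8 months. That of 14 amacrine genes of 14, which include Tfap2a and Slc32a1, ran from 10.16 to 10.17 and from 10.32 to 10.41, in the direction of Tfap2b. Of these 14 genes, 11 had positive and 3 negative changes, with a median of 0.13, where 49.8% of 12046 genes were negative. The amacrine changes were uneven, with 1.00 for Tac1, 0.83 for Vip and 0.51 for Gad2. Dab1 went the other way, at −0.26, as did Slc6a9, at −0.11. The ganglion cell list, 9 kept of 13, ran from 10.31 to 10.39 and from 10.25 to 10.55, and the Müller glia list, 11 kept of 13, from 11.18 to 11.27 and from 11.15 to 11.24. The part of these lists in the results above was not tested. In these lists and in those of bipolar cells, rods, pigment epithelium, muscle, blood, lens, microglia and vessels, limma called Arr3 and Gnat2 of the cone list lower, Vip of the amacrine list higher, and no other gene. The bipolar list, 13 kept of 15, ran from 10.96 to 11.02 at 2 months and from 10.92 to 10.97 at 8 months. Its median change was −0.07, with 8 of 13 genes negative and 2 lower at an unadjusted p below 0.05. Of all kept probes, 4.44% were lower at that threshold. The rod list, 8 kept of 12, ran from 8.49 to 8.77 at 2 months and from 8.15 to 8.34 at 8 months. Of its 8 genes, 4 had negative and 4 positive changes.

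Markers from outside the neural retina were uneven between the samples. The mean of 3 kept haemoglobin genes of a list of 7 ran from 10.68 to 12.10 at 2 months and from 9.53 to 9.61 at 8 months, and that of 12 pigment epithelium genes of 12 from 9.08 to 9.70 and from 8.61 to 9.13. The ages did not overlap for haemoglobin and overlapped for pigment epithelium, and 2 month replicate 2 was the highest sample for both. It was also highest for the muscle list, at 8.76 against 7.29 to 7.98 in the others. Because haemoglobin separated the ages, a fit with it as a covariate cannot tell blood and age apart. With the haemoglobin level as a covariate the change of ILMN_1225672 of Lhx1 was −0.34 (SE 0.120) and that of ILMN_2716543 was 0.07 (SE 0.152). The same covariate gave −0.12 (SE 0.101) at ILMN_2492944 and −0.05 (SE 0.108) at ILMN_2693913 of Onecut2, and −0.21 (SE 0.161) at ILMN_2492181 of Slc4a3. Other changes were larger with it: 0.34 (SE 0.128) at ILMN_1223731 of Tfap2b, −0.24 (SE 0.0929) at ILMN_2643492 of Onecut3 and −0.26 (SE 0.245) at ILMN_2675029 of Slc4a3. At ILMN_2598766 of Prox1, where the change without it was 0.02, it gave −0.28 (SE 0.104). With the pigment epithelium level instead, ILMN_3151298 and ILMN_2502039 of Tfap2b were at 0.11 (SE 0.0899) and 0.13 (SE 0.0705). Each of these errors was larger than without a covariate, and with haemoglobin the adjusted p of the brighter Lhx1 probe was 0.710 (limma).

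The samples also differed in sex-linked transcripts. Eif2s3y, on the Y chromosome, was at 7.79 and 8.27 in 2 month replicates 1 and 2 and at 7.10 to 7.18 in the other samples, and Xist was at 9.40 and 8.73 in those 2 and at 10.48 to 11.10 in the others. With the Xist level as a covariate, an alternative chosen after seeing the data, ILMN_1225672 of Lhx1 had a change of −0.36 (SE 0.0546) and ILMN_2492944 of Onecut2 one of −0.28 (SE 0.0665). It gave −0.08 at ILMN_2716543 of Lhx1 and −0.07 at ILMN_2693913 of Onecut2. At ILMN_2675029 of Slc4a3 it gave −0.32 (SE 0.107). At ILMN_2760450 and ILMN_3151298 of Tfap2b it gave 0.09 (SE 0.0741) and 0.14 (SE 0.0860), smaller than without it. At ILMN_2502039 and ILMN_1223731 of Tfap2b it gave 0.22 (SE 0.0798) and 0.17 (SE 0.0899), not smaller than without it. The part of sex in the differences between the ages was not tested further.

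**Figure D3:**
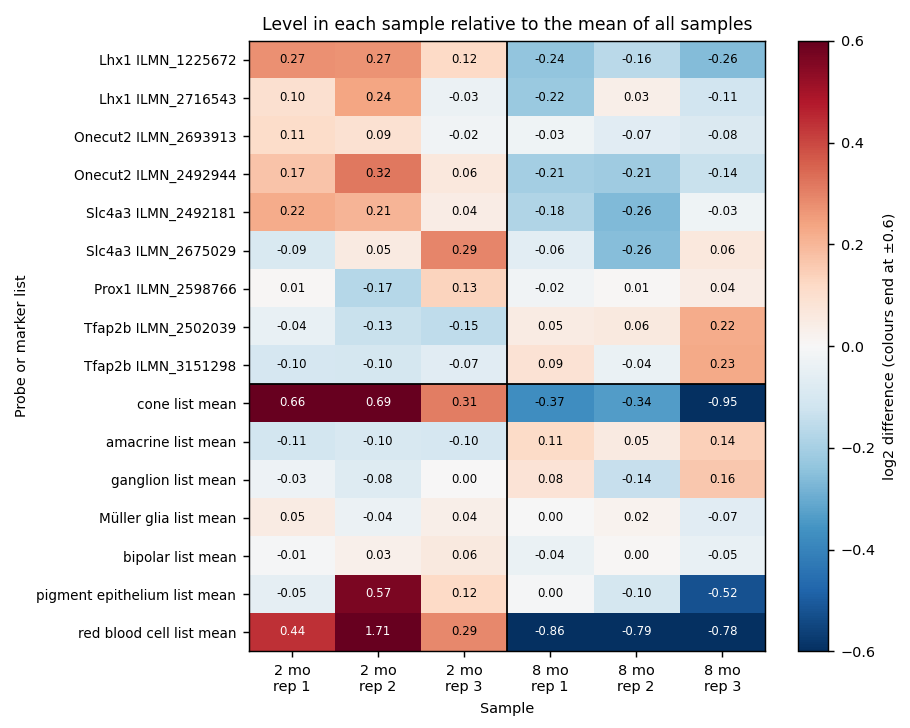
Level in each of the 6 samples (columns) minus the mean of all samples, in log2, for 9 probes of the set and the means of 7 marker lists (rows); red is above and blue below the mean, and colours end at ±0.6. The brighter Lhx1 probe, both Onecut2 probes, ILMN_2492181 of Slc4a3, and the cone and red blood cell lists are higher in every 2 month sample. Both Tfap2b probes and the amacrine list are higher in every 8 month sample, and Prox1 overlaps.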

How the data were processed

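RNA of 6 central retina samples was measured on single-colour Illumina bead arrays, per the labels' protocols. The deposited table holds 1 log2 value per probe and sample, from 6.98 to 14.48, and its sorted columns agree within 0.003, so the authors had normalized between arrays. Which software, background correction and method they used is not given in the sources used here. Array medians were 7.19. Signal over background, with 3 arrays per age, limits the precision, and depth does not apply.

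Groups came from the titles. Probes were named through the platform annotation. The filter required a signal above the 50th percentile of the array on 3 or more arrays and left 22458 probes. Changes, 8 months minus 2 months, were tested per probe with limma 3.58.1 in R 4.3.3 (lmFit, eBayes, 4 residual and 3.20 prior degrees of freedom), adjusted by Benjamini-Hochberg at 0.05, with no covariate. The script was tested on simulated data. Nothing says whether pools shared animals, so p-values cover the spread between the pools. All members are named, with the 4 other horizontal cell genes of smallest p at their brightest kept probe. The 5 genes most like the member probe of smallest p are named too. Marker genes use the brightest kept probe. The members and lists were chosen with earlier results of these data known. Alternatives covered normalization, filters, 1 probe a gene, variance model, array weights, covariates, the replicate number and each sample left out.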

Additional observations from a re-analysis of the deposited data

How the results depend on the processing

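The count of 0 lower member probes became 1 with the stricter filter (above the 75th percentile), 2 with limma-trend and robust variances, and ran from 0 to 1 when a sample was left out. The count of 0 higher ones was 0 throughout. Of 20 kept member probes, 11 kept their sign under every one of the 18 alternatives that could be fitted for them. The others had 27 sign changes, at probes that no alternative called. With the red blood cell covariate, ILMN_2716543 of Lhx1 was at 0.0691, ILMN_2598766 of Prox1 at −0.279, ILMN_1245527 of Tfap2b at −0.197, Gja10 at 0.0222, and ILMN_2782061 and ILMN_2593621 of Slc4a3 at −0.105 and 0.120. With the pigment epithelium covariate ILMN_2598766 was at −0.0893, ILMN_1245527 at −0.112, Gja10 at 0.00431 and ILMN_2782061 at −0.0533. With the Xist covariate, added after seeing the data, ILMN_2598766 was at −0.0997, ILMN_1245527 at −0.0836, Gja10 at 0.00922 and ILMN_2593621 at 0.0622. Leaving out 1 sample gave −0.0610 to 0.0926 for ILMN_2598766 and −0.0531 to 0.0133 for ILMN_2894355 of Prox1, −0.0403 to 0.0742 for ILMN_1245527 and −0.0531 to 0.0100 for ILMN_3072487 of Tfap2b, −0.0291 to 0.0269 for Gja10, and −0.0432 to 0.118 for ILMN_2675026, −0.00523 to 0.0877 for ILMN_2782061 and −0.0947 to 0.00729 for ILMN_2593621 of Slc4a3. The causes were not tested.

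Over all kept probes, 3 were lower and 8 higher, against 47 and 48 of 11444 with the stricter filter, 74 and 67 with limma-trend and robust variances, 8 and 19 of 12046 with 1 probe a gene, 0 and 0 with the red blood cell covariate, and 0 to 27 lower and 3 to 13 higher when a sample was left out. The 27 and 13 were without 2 month replicate 3, the sample whose removal gave the member call. With the replicate block they were 13 and 12, no member probe was called, and ILMN_1225672 of Lhx1 stayed at −0.44 (limma adjusted p = 0.0752). The titles' numbers are shared between the ages. In the descriptions, however, 2 of the 2 month samples carry replicate number 1, so the block rests on the titles, and the count of 3 independent samples on the titles and the series design. The deviations of same-numbered samples by title correlated at 0.05, 0.13 and 0.16, and each sample correlated best with its own number. The other pairs ran from −0.15 to 0.02. The main fit assumed no pairing, which these values do not settle. With the block the SE was 0.0610 against 0.0891 at ILMN_2716543 of Lhx1 and 0.0757 against 0.115 at ILMN_2675029 of Slc4a3. It was larger at some other probes, such as ILMN_2502039 of Tfap2b (0.0665 against 0.0614). Dim probes limit what can be seen of Calb1, Gja10 and Onecut3.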
